A study of Mus musculus with 6 samples.

Results

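The integrated stress response genes described here are *Atf4*, *Atf5*, *Ddit3*, *Atf3*, *Trib3*, *Chac1*, *Asns*, *Psat1*, *Phgdh* and *Fgf21*. These 10 genes are factors and targets of the ATF4 pathway, together with *Fgf21*, and were chosen by symbol. They are 10 of the 46517 gene identifiers that were counted. Each of them passed the filter on low values, which asked for 1 read per 1000000 counted reads (cpm) in any sample, and all 10 are thus among the 14967 genes tested. RNA-seq was performed on inguinal subcutaneous white adipose tissue (IngWAT) of mice of strain C57Bl6, 5 to 9 months old and fed chow. Both groups carried floxed *Hdac3*, the gene of a histone deacetylase found in transcriptional co-repressor complexes. Floxed mice were the controls. H3atKO mice also carried Adipoq-cre, a Cre recombinase driven by the adiponectin promoter, which is active in adipocytes, so that the deletion is directed to these cells and not to the others of the tissue. Each group had 3 samples, and each sample was a pool of RNA from 2 or 3 mice.

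When eIF2α is phosphorylated by a stress-sensing kinase, most translation slows while that of a few messages, *Atf4* among them, is favoured. ATF4 then binds DNA together with C/EBP proteins and switches on genes for amino acid synthesis and uptake, tRNA charging and, under lasting stress, cell death. In fat and muscle the pathway is known for its response to mitochondrial stress, in which *Fgf21*, the gene of a secreted metabolic hormone, is one of the targets. ATF4 is controlled largely through translation, so that RNA levels do not measure its activity.

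The C/EBP-ATF composite element through which ATF4 acts has the core TGATGNAA, where N is any base. It was searched on both strands of RefSeq promoter windows that run from 250 bases before to 50 bases after each gene's start (GRCm38.p6). The 10 members had 12 such windows, and 5 members held a match, against 3.97% of all 32851 windows and 4.51% of the 27025 genes with a window. The other stretch searched, the cyclic AMP response element TGACGTCA, was in 0 of the 10 members and in 1.79% of all windows, so that no overlap between the elements arose. The 5 matches are shown because these genes are the members whose promoters hold the pathway's own element. Each is written 5′ to 3′ along the gene's own strand, and the capitals mark the match.
Trib3: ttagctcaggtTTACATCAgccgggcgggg
Asns: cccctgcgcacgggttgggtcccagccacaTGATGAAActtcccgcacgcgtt
Chac1: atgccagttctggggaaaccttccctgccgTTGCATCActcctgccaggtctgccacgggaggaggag
Fgf21: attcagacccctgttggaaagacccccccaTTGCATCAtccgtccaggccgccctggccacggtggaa
Atf3: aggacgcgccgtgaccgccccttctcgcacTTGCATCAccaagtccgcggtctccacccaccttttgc

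These stretches lie at chr2:152344028-152344057 (minus strand) for *Trib3*, chr6:7693210-7693262 (minus strand) for *Asns*, chr2:119351019-119351086 (plus strand) for *Chac1*, chr7:45615592-45615659 (minus strand) for *Fgf21* and chr1:191183406-191183473 (minus strand) for *Atf3*. Only the *Asns* match reads TGATG along the gene, and the other 4 read it on the opposite strand. The matches begin at position -23 from the start in *Asns*, -193 in *Chac1*, -139 in *Fgf21* and -110 in *Atf3*, and at 15 in *Trib3*, which is after the RefSeq start. That start lies upstream of the *Trib3* gene as GENCODE M21 annotates it, and no GENCODE transcript of *Trib3* holds the bases that follow it. For the other members' 11 windows these bases occur in a GENCODE transcript, at its beginning or further in. Some of these starts lie inside the annotated gene. That of *Asns* is among them, and its match at -23 also lies inside the annotated gene. No match was found for *Atf4*, *Atf5*, *Ddit3*, *Psat1* and *Phgdh*, which says only that these letters are not in their windows. Among the other genes of the pathway, 13 of 80 with a window held the element. These included 5 of 8 aminoacyl-tRNA synthetase genes, *Aars*, *Gars*, *Iars*, *Tars* and *Yars*. Whether ATF4 occupied any of these sites was not measured.

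Between 23865507 and 35200685 reads per sample were counted on genes. *Hdac3* itself had 2709 to 3339 counts in the floxed pools and 204 to 666 in the H3atKO pools (log2 fold change -1.83, adjusted p = 0.0213, limma voom; called in 1 of the 6 fits that left out a sample, that without floxed replicate 3). Some features of the libraries moved with the genotype. Genes of the mitochondrial genome took 6.92% to 12.9% of the counts in floxed and 26.9% to 35.3% in H3atKO samples. Over 14922 genes, how far each pool lay above or below the average of all pools was also related to the GC content of the longest transcript. Spearman's rho of this relation was between 0.0969 and 0.800 in the floxed pools and between -0.711 and -0.433 in the H3atKO pools. The effects of GC content and of genotype therefore cannot be told apart. The members had a median GC content of 55.0%, above the 49.2% of the genes tested. A fit in which the GC trend of every sample was subtracted was therefore also made, in which *Hdac3* was at -2.08 (adjusted p = 0.0185).

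In H3atKO IngWAT 1 of the 10 integrated stress response genes passed the test. *Psat1*, an enzyme of serine synthesis, fell to 0.410 of its floxed level and was called at an adjusted p under 0.05 by limma voom, in which 7.07% of all genes tested were called lower and 9.42% higher. No member was called higher, and at an unadjusted p under 0.05 limma voom found 2 members lower and 0 higher, against 23.4% and 20.4% of all genes. The edgeR quasi-likelihood test called 3 members lower (*Psat1*, *Phgdh* and *Fgf21*) and 0 higher, while it called 18.4% of all genes lower and 12.8% higher. DESeq2 called the same 3 members lower and 0 higher, with 23.2% of all genes lower and 19.6% higher. Of these 3, *Fgf21* passed the filter on low values only through floxed samples, and its groups overlapped. The median log2 fold change of the members was -0.85, against -0.09 over all genes tested, and 8 of the 10 had a value below 0. With the GC trend subtracted the median of the members was 0.55 and that of all genes 0.02, and 4 members lay below 0.

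**Figure D1:**
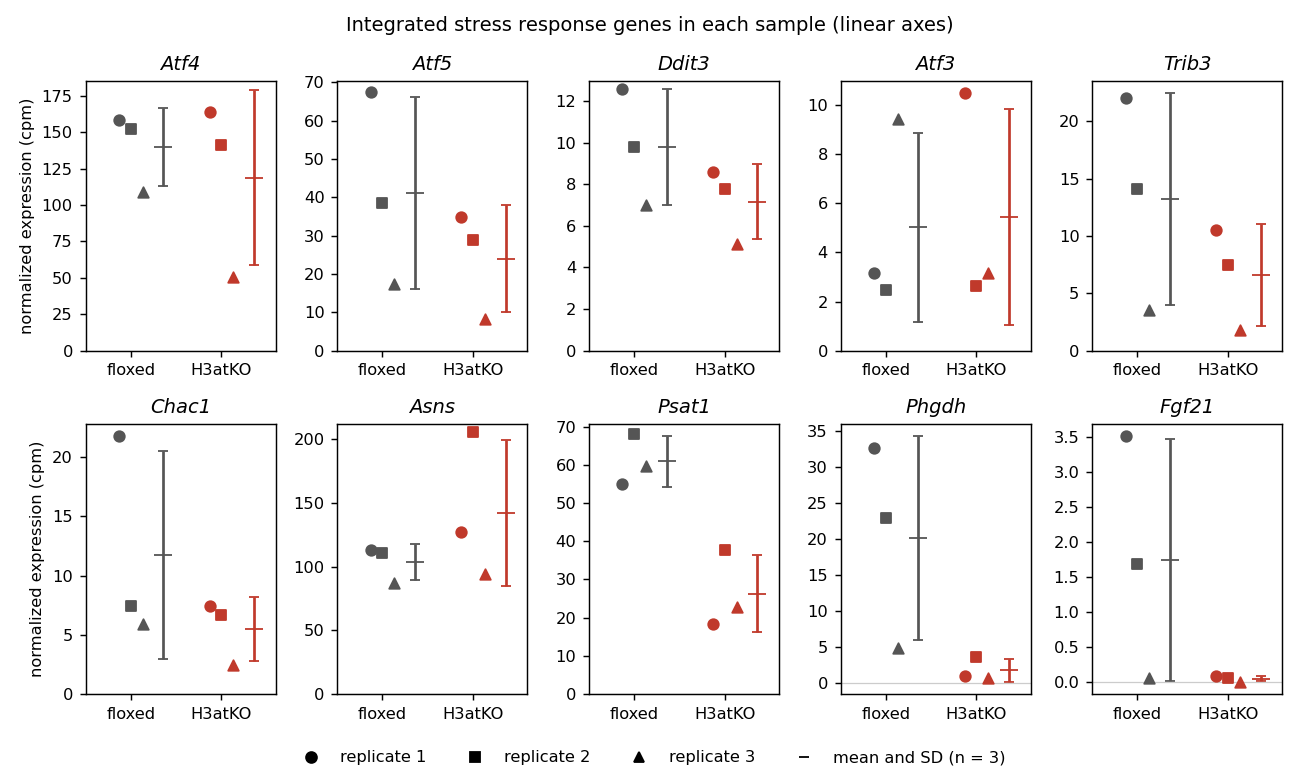
Normalized expression (cpm of the TMM-scaled library, linear axes) of the 10 members in each of the 6 samples, with the mean and SD of each group (n = 3). Replicate 3 is the lowest sample of its group for 8 members in floxed and for 8 members in H3atKO, and only *Psat1* and *Phgdh* have groups that do not overlap.

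*Atf4* (ENSMUSG00000042406, chr15:80255184-80257541), the central factor of the response, had 159, 152 and 109 cpm in floxed replicates 1 to 3 and 164, 142 and 50.7 cpm in H3atKO replicates 1 to 3. The groups overlapped, and H3atKO replicate 3 stood below the other 5 samples. On the log2 scale its difference of -0.38 (standard error, SE, 0.45, adjusted p = 0.532, limma voom) was smaller than its error, and it was 1.05 (SE 0.30, adjusted p = 0.0773) with the GC trend subtracted. Without H3atKO replicate 3 it was 0.15. *Atf4* lay at 119 ± 60.0 cpm in H3atKO and 140 ± 26.9 cpm in floxed (mean ± SD, n = 3).

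*Atf5* (ENSMUSG00000038539, chr7:44812256-44816658), a related factor whose translation is controlled in the same way, had 67.4, 38.6 and 17.5 cpm in floxed and 34.8, 28.8 and 8.345 cpm in H3atKO replicates 1 to 3. The groups overlapped, since in each of them replicate 1 was far above replicate 3. The log2 fold change was -0.74 (SE 0.67, adjusted p = 0.408), and the same gene was called higher, at 1.68 (SE 0.28, adjusted p = 0.0232), with the GC trend subtracted. *Atf5* has the highest GC content of the members, 61.7%, and 82 of its exon bases are shared with *Nup62* and *Il4i1* on the other strand. Its adjusted p ran from 0.0155 to 0.862 over the alternatives, and its direction followed the treatment of GC content.

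*Ddit3* (ENSMUSG00000025408, chr10:127290774-127296288) encodes CHOP, a factor linked to cell death under lasting stress. It had 12.6, 9.79 and 6.9997 cpm in floxed and 8.57, 7.75 and 5.12 cpm in H3atKO replicates 1 to 3, with overlapping groups. Its log2 fold change was -0.43 (SE 0.39, adjusted p = 0.407) and stayed below 0 with the GC trend subtracted, at -0.88 (adjusted p = 0.213). *Ddit3* shares 68 exon bases with *Mars* on the other strand and 105 with a further annotated gene of the same name.

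*Atf3* (ENSMUSG00000026628, chr1:191170296-191218039), a stress-inducible repressor and activator, was the least ordered of the factors. It had 3.16, 2.45 and 9.43 cpm in floxed and 10.5, 2.65 and 3.16 cpm in H3atKO replicates 1 to 3. Floxed replicate 3 and H3atKO replicate 1 stood above the other 4 samples, so that each group had 1 high sample. The log2 fold change was 0.14 (SE 0.72, adjusted p = 0.889), and it was -0.53 without H3atKO replicate 1 and 0.73 without floxed replicate 3. Floxed replicate 3 also had the highest summed level of 6 macrophage markers, 2142 cpm against 336 to 599 cpm in the other samples, whereas H3atKO replicate 1 had 558 cpm. The part of these cells in the *Atf3* level was not tested.

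*Trib3* (ENSMUSG00000032715, chr2:152337422-152344032) encodes a pseudokinase that restrains ATF4 and Akt. It had 22.0, 14.1 and 3.57 cpm in floxed and 10.5, 7.44 and 1.77 cpm in H3atKO replicates 1 to 3. As for *Atf5*, the order of the samples was the same in both groups and the groups overlapped. On the log2 scale H3atKO differed by -0.95 (SE 0.90, adjusted p = 0.429), and 1.07 (SE 0.45, adjusted p = 0.16) with the GC trend subtracted. Its profile over the 6 samples was nearly that of *Atf5*, with a Pearson r of 0.990 in log2 cpm, which is given with no test since the samples share depth and GC trend.

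*Chac1* (ENSMUSG00000027313, chr2:119351229-119354381), whose product degrades glutathione, had 21.8, 7.43 and 5.88 cpm in floxed and 7.45, 6.68 and 2.402 cpm in H3atKO replicates 1 to 3. Floxed replicate 1 stood apart at the top, and the remaining samples overlapped. Its log2 difference of -0.97 (SE 0.68, adjusted p = 0.29) turned to 0.89 (adjusted p = 0.13) with the GC trend subtracted.

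*Asns* (ENSMUSG00000029752, chr6:7675169-7693254), asparagine synthetase and a classical ATF4 target, did not share the order of *Trib3* and *Chac1*. It had 113, 111 and 87.1 cpm in floxed and 127, 206 and 94.1 cpm in H3atKO replicates 1 to 3. H3atKO replicate 2 was the highest sample, and the groups overlapped through H3atKO replicate 3. Its log2 fold change was 0.39 (SE 0.32, adjusted p = 0.363) and 0.24 (adjusted p = 0.649) with the GC trend subtracted, while scaling by library size alone, which moved the median of all genes to -0.94, gave -0.46.

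*Phgdh* and *Psat1* catalyse the first and the second step from a glycolytic intermediate to serine, and *Psph* the last. *Psat1* (ENSMUSG00000024640, chr19:15904678-15947337), which the study also uses as a marker of white over brown fat, had 55.0, 68.1 and 59.8 cpm in floxed replicates 1 to 3. The H3atKO pools had 18.4, 37.8 and 22.8 cpm, and every H3atKO sample lay below every floxed sample. The log2 fold change was -1.28 (SE 0.31, adjusted p = 0.0386, limma voom), and -1.35 (SE 0.28, adjusted p = 0.0354) with the GC trend subtracted. The adjusted p passed 0.05 when any sample other than floxed replicate 3 was left out, with values from 0.0511 without H3atKO replicate 2 to 0.140 without floxed replicate 2, and was 0.0230 without floxed replicate 3. The log2 fold change over those 6 fits lay between -1.63 and -1.05.

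*Phgdh* (ENSMUSG00000053398, chr3:98313170-98339990) had 32.7, 22.9 and 4.81 cpm in floxed and 1.03, 3.57 and 0.695 cpm in H3atKO replicates 1 to 3. The groups again did not overlap, although floxed replicate 3, at 4.81 cpm (198 counts), came close to H3atKO replicate 2, at 3.57 cpm (70 counts). The log2 fold change was -3.45 (SE 1.12, adjusted p = 0.0641, limma voom), which places it among the lowest 2.04% of the genes tested. It was called by edgeR (adjusted p = 0.0299) and, without floxed replicate 3, by limma voom (-4.27, adjusted p = 0.00585). With the GC trend subtracted it was -1.66 (SE 0.67, adjusted p = 0.15) and the groups overlapped. A processed pseudogene, *Phgdh-ps1*, is annotated, and reads that fit both places equally were given to neither.

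*Psat1* and *Phgdh* are the 2 members whose groups did not overlap, both lower in H3atKO, and 0 members were higher in all H3atKO samples. Over all genes tested, every H3atKO sample lay below every floxed sample for 28.6% and above for 23.1%. The two-sided exact permutation test gave p = 0.1 for both, the smallest that 3 samples against 3 allow. Of the 6 other enzymes listed for serine and one-carbon metabolism, 1 had every H3atKO sample below every floxed sample. Another 2 had every H3atKO sample above. By limma voom 0 of the 6 were called, and 1 higher and 1 lower passed at an unadjusted p under 0.05, counts that edgeR also gave. With the block 1 was called higher and 1 lower, against 24.8% and 28.7% of all genes. With the GC trend subtracted 0 were called (at an unadjusted p under 0.05, 2 higher and 0 lower). *Psph*, named after its values were seen, had 3.84, 3.46 and 2.97 cpm in floxed and 5.97, 7.04 and 9.42 cpm in H3atKO replicates 1 to 3. It thus lay above all floxed samples in H3atKO (log2 fold change 1.09, SE 0.36, adjusted p = 0.0682; 1.18, adjusted p = 0.0548 with the GC trend subtracted). *Shmt2*, the gene of the mitochondrial enzyme that splits serine, was likewise named after its values were seen. It was at -1.92 on that scale (adjusted p = 0.103) and at -0.09 with the GC trend subtracted. All its H3atKO samples lay below all its floxed samples. It had 13.3, 6.68 and 3.48 cpm in floxed and 2.97, 2.70 and 0.569 cpm in H3atKO replicates 1 to 3.

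*Fgf21* (ENSMUSG00000030827, chr7:45613886-45615490) was the scarcest member. The floxed pools 1 to 3 gave 160, 70 and 2 counts and the H3atKO pools 2, 1 and 0, which is 3.51, 1.68 and 0.0486 cpm against 0.0824, 0.0510 and 0 cpm. It passed the filter on low values only through floxed replicates 1 and 2, and floxed replicate 3 lay within the range of the H3atKO samples. Summed over each group, 232 counts in floxed stood against 3 in H3atKO, a ratio of 36.0 per scaled library with an exact Poisson interval from 12.2 to 176 (95%, counting error only). Without floxed replicate 1, which held 160 of the 232 counts, the ratio was 17.3. The fitted log2 fold change, which depends on the prior count for so few reads, was -3.54 (SE 2.56, adjusted p = 0.304) in limma voom. It was -5.06 (adjusted p = 0.043) in edgeR and -2.38 (adjusted p = 0.493) in limma voom with the GC trend subtracted. Without floxed replicate 3, limma voom gave -5.27 (adjusted p = 0.00882), and without floxed replicate 1, -2.33 (adjusted p = 0.424).

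Because liver is a main source of FGF21, hepatocyte markers were compared beside it. *Alb*, the gene of serum albumin, moved with *Fgf21*, from 3994, 3888 and 726 counts in the floxed pools 1 to 3 down to 34, 16 and 6 in the H3atKO pools. Of the 6 markers, 4 had at most 100 counts in every sample, with *Ttr* at no more than 2. The summed level of the list, 2368 to 4175 cpm in floxed and 6253 to 12098 cpm in H3atKO, was carried by *Cyp2e1*, which fat also expresses. The part of liver-type RNA in the *Fgf21* difference was not tested.

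The receptor side of FGF21 was far more abundant. *Fgfr1*, its main receptor in fat, had 245, 185 and 117 cpm in floxed and 25.4, 31.3 and 24.1 cpm in H3atKO replicates 1 to 3. It fell by 2.70 on the log2 scale (SE 0.34, adjusted p = 0.0108), and with the GC trend subtracted it remained called at -1.32 (adjusted p = 0.0237). The call was lost without floxed replicate 2 (-2.66, adjusted p = 0.0573) and without H3atKO replicate 3 (-2.63, adjusted p = 0.0549) and held in the other 4 fits that left out a sample. *Klb*, the obligate co-receptor β-klotho, named after its values were seen, had 120, 95.1 and 76.7 cpm in floxed against 102, 119 and 43.5 cpm in H3atKO (log2 fold change -0.23, adjusted p = 0.673; -0.14, adjusted p = 0.82 with the GC trend subtracted).

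Regulators of *Fgf21* transcription moved in both directions. *Ppara*, the nuclear receptor that switches on *Fgf21* in fasting liver, rose from 6.24, 4.59 and 5.83 cpm in floxed to 25.6, 30.8 and 14.2 cpm in H3atKO. This was 2.05 on the log2 scale (SE 0.39, adjusted p = 0.0248), and 2.59 (adjusted p = 0.0117) with the GC trend subtracted. *Mlxipl*, which encodes the carbohydrate-responsive factor ChREBP, fell by 2.16 on the log2 scale (adjusted p = 0.0343), and was at -0.50 (adjusted p = 0.193) with the GC trend subtracted. These counts are per gene and do not separate its isoforms. By qPCR the paper reports more of the ChREBPβ isoform in IngWAT of H3atKO mice on a low fat diet. In all, 1 of the 6 genes listed as FGF21 receptors and regulators rose and 2 fell, against 9.42% and 7.07% of all genes. With the block 1 was called higher and 3 lower, against 24.8% and 28.7%.

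Both genotypes carry the replicate numbers 1, 2 and 3, and samples with the same number deviated from their group means together. Compared within a number, 7 members were lower in H3atKO in 3 of 3 pairs, 1 member (*Asns*) was higher in 3 of 3, and *Atf4* and *Atf3* had mixed signs. Among the 7 is *Fgf21*, which passed the filter on low values only through floxed samples. Its pair 3 held 2 counts in floxed and 0 in H3atKO, too few to compare. Over all genes tested, 39.4% were lower and 34.1% higher in every pair. The ratio of H3atKO to floxed cpm was 0.477, 0.528 and 0.495 in pairs 1 to 3 for *Trib3*, and 0.681, 0.792 and 0.732 for *Ddit3*. These ratios were thus nearly constant although the levels of *Trib3* differed several-fold between the pairs. The ratios were less even for *Atf5* (0.517, 0.747 and 0.478), *Chac1* (0.342, 0.899 and 0.408) and *Psat1* (0.334, 0.555 and 0.381). For *Phgdh* they were 0.0315, 0.156 and 0.145. *Atf4* gave 1.03, 0.930 and 0.464, so that its lower mean in H3atKO came from pair 3.

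With the replicate number as a block, limma voom called 6 members lower and 0 higher, with 28.7% of all genes called lower and 24.8% higher. The members called were *Psat1* (adjusted p = 0.00614), *Phgdh* (0.00475), *Trib3* (0.0138), *Fgf21* (0.0161), *Atf5* (0.0248) and *Chac1* (0.049). Among them *Fgf21* had passed the filter on low values only through floxed samples. At an unadjusted p under 0.05 the same counts of 6 and 0 resulted, against 32.4% of all genes lower and 28.4% higher. *Atf4* (log2 fold change -0.39, adjusted p = 0.257), *Ddit3* (-0.45, adjusted p = 0.131), *Asns* (0.39, adjusted p = 0.178) and *Atf3* (0.19, adjusted p = 0.814) were not called with the block.

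**Figure D2:**
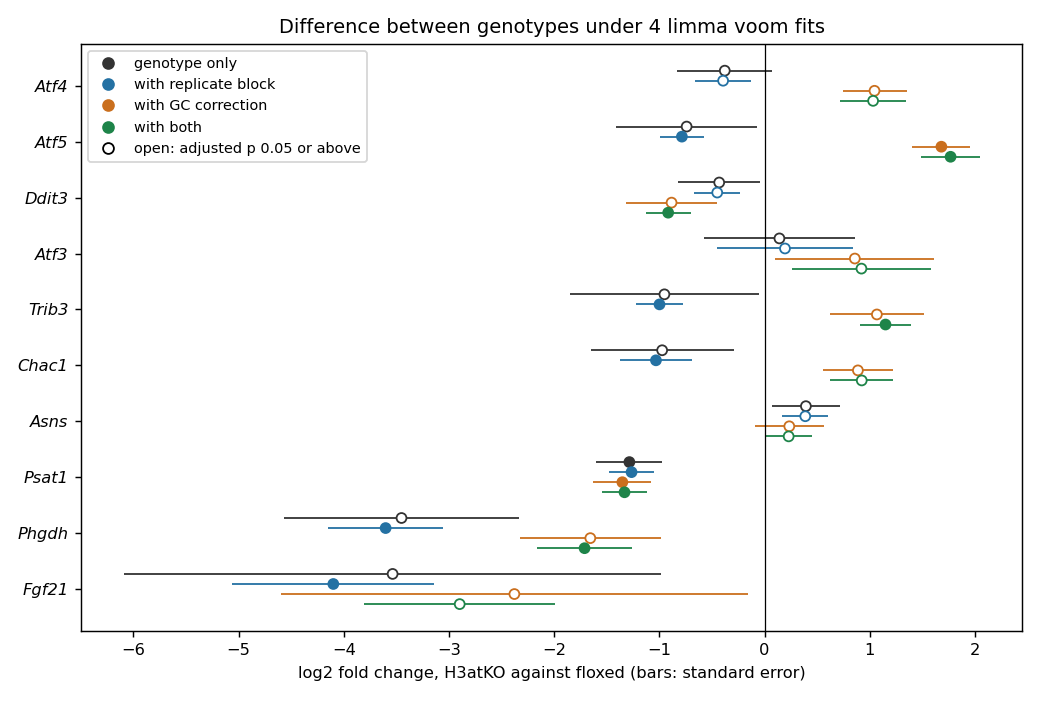
Log2 fold change of H3atKO against floxed (bars, standard error) for the 10 members in 4 limma voom fits: genotype only, with the replicate block, with the GC trend subtracted, and with both. Filled points have an adjusted p under 0.05. *Psat1* is filled and near -1.3 in all 4, whereas *Atf4*, *Atf5*, *Trib3* and *Chac1* change sign between the fits without and with the GC correction.

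Subtracting the GC trend divided the members into 3 sets. *Psat1*, *Phgdh*, *Fgf21* and *Ddit3* stayed below 0 in every one of the 4 limma voom fits, *Asns* and *Atf3* stayed above 0, and *Atf4*, *Atf5*, *Trib3* and *Chac1* turned from below to above 0. The 4 members that turned have a GC content of 55.5% to 61.7%. *Phgdh*, at 57.2%, did not turn. In the fit with the GC trend subtracted and no block, limma voom called *Atf5* higher and *Psat1* lower, with 5.46% of the genes called higher and 3.2% lower.

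With block and correction in 1 fit, *Atf5* (1.77, adjusted p = 0.0155) and *Trib3* (1.15, adjusted p = 0.0281) were called higher. *Psat1* (-1.33, adjusted p = 0.0165), *Ddit3* (-0.92, adjusted p = 0.0366) and *Phgdh* (-1.71, adjusted p = 0.0478) were called lower. The share of all genes called in that fit was 12.9% higher and 9.84% lower. On the corrected log2 cpm scale *Atf4* was at 6.01, 6.50 and 6.71 in the floxed pools and at 7.74, 7.73 and 6.87 in the H3atKO pools. *Atf5* was 3.64, 3.95 and 4.10 in floxed and 5.86, 5.80 and 4.98 in H3atKO on the same scale. A direction for *Atf4*, *Atf5*, *Trib3* and *Chac1* thus cannot be read from these samples without a choice on GC content. A true effect of *Hdac3* loss that ran along GC content would be subtracted with the trend.

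**Figure D3:**
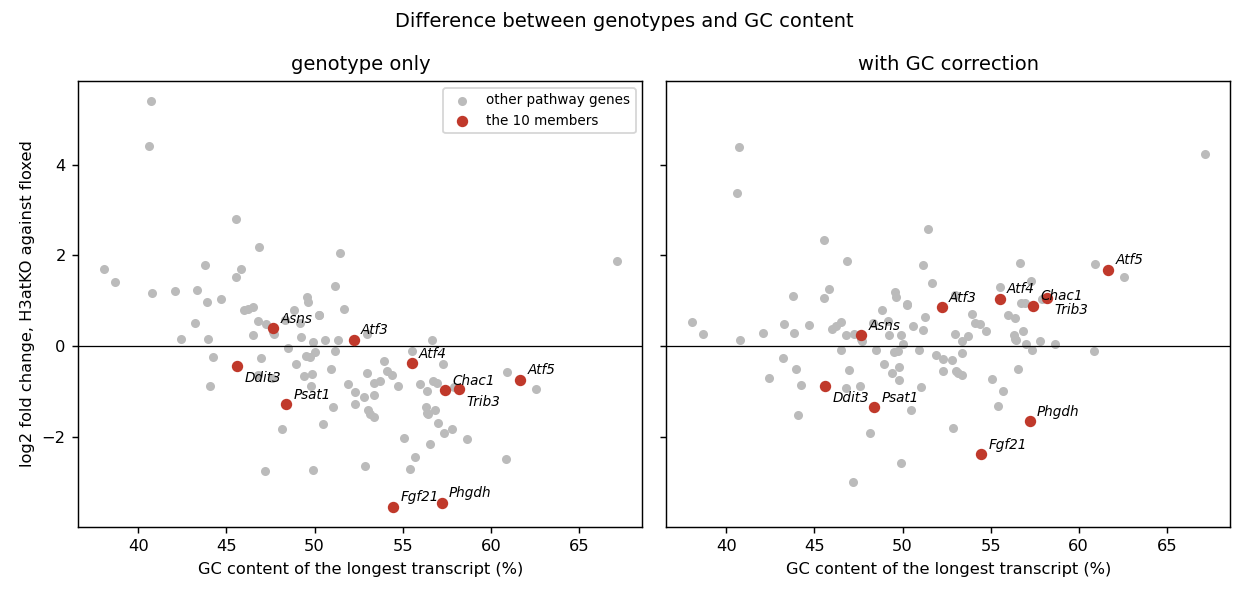
Log2 fold change of H3atKO against floxed against the GC content (%) of the longest transcript, for the 10 members (red, named) and the other pathway genes (grey), by limma voom on genotype only (left) and with the GC trend subtracted (right). On the left the values fall with GC content (Spearman's rho over 14922 genes, -0.706), and on the right *Atf5*, at 61.7% GC, lies above 0 while *Psat1*, *Phgdh* and *Fgf21* remain below.

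Upstream of the members, 0 of the 4 eIF2α kinases were called by limma voom (at an unadjusted p under 0.05, 1 higher by limma voom and 0 by edgeR), and their median log2 fold change was 0.15. With the block 1 was called higher, *Eif2ak2*, which encodes the double-stranded RNA sensor PKR and was named after its values were seen. It had 18.0, 23.5 and 46.7 cpm in the floxed pools 1 to 3 and 44.6, 47.9 and 69.1 cpm in the H3atKO pools, so that the groups overlapped. On the log2 scale it was at 0.96 (SE 0.39, adjusted p = 0.103; 0.0122 with the block) and at 0.29 (adjusted p = 0.454) with the GC trend subtracted.

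*Ppp1r15a*, the stress-inducible regulator that dephosphorylates eIF2α and is itself an ATF4 target, had 34.4, 20.1 and 8.56 cpm in floxed and 9.88, 2.55 and 1.20 cpm in H3atKO replicates 1 to 3. On the log2 scale this came to -2.45 (SE 0.86, adjusted p = 0.0741; 0.00422 with the block), and it was -0.98 (adjusted p = 0.246) with the GC trend subtracted. The constitutive regulator *Ppp1r15b* lay the other way, with 102, 120 and 146 cpm in floxed and 202, 218 and 215 cpm in H3atKO. Its log2 fold change was 0.80 (adjusted p = 0.0508) and 0.79 (adjusted p = 0.0436) with the GC trend subtracted. *Ppp1r15a* and *Ppp1r15b* were named after their values were seen.

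Of the 8 genes of eIF2 and its exchange factor eIF2B, 2 rose, against 9.42% of all genes called higher. *Eif2s1*, the α subunit that the kinases phosphorylate, rose by 1.16 on the log2 scale (adjusted p = 0.0269) and *Eif2s2*, the β subunit, by 1.41 (adjusted p = 0.0241). Both are poor in GC, at 40.8% and 38.7%, and with the GC trend subtracted they were at 0.14 and 0.27 and not called. The 6 other subunits had values below 0, and with the block 5 of the 8 were called lower, against 28.7% of all genes. With the GC trend subtracted 0 of the 8 were called lower, and 3 lay above 0. The block plus GC correction called 2 lower, against 9.84% of all genes.

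Of the 4 genes listed as bZIP partners of ATF4, 2 rose, against 9.42% of all genes called higher. *Cebpb* had 4.79, 1.85 and 2.38 cpm in floxed and 9.10, 8.62 and 14.2 cpm in H3atKO replicates 1 to 3 (log2 fold change 1.88, adjusted p = 0.0393). *Cebpg* had 85.8, 102 and 113 cpm in floxed and 171, 235 and 322 cpm in H3atKO (1.24, adjusted p = 0.0353). With the GC trend subtracted *Cebpb* was at 4.23 (adjusted p = 0.0166) and *Cebpg* at 0.48 (adjusted p = 0.148).

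**Figure D4:**
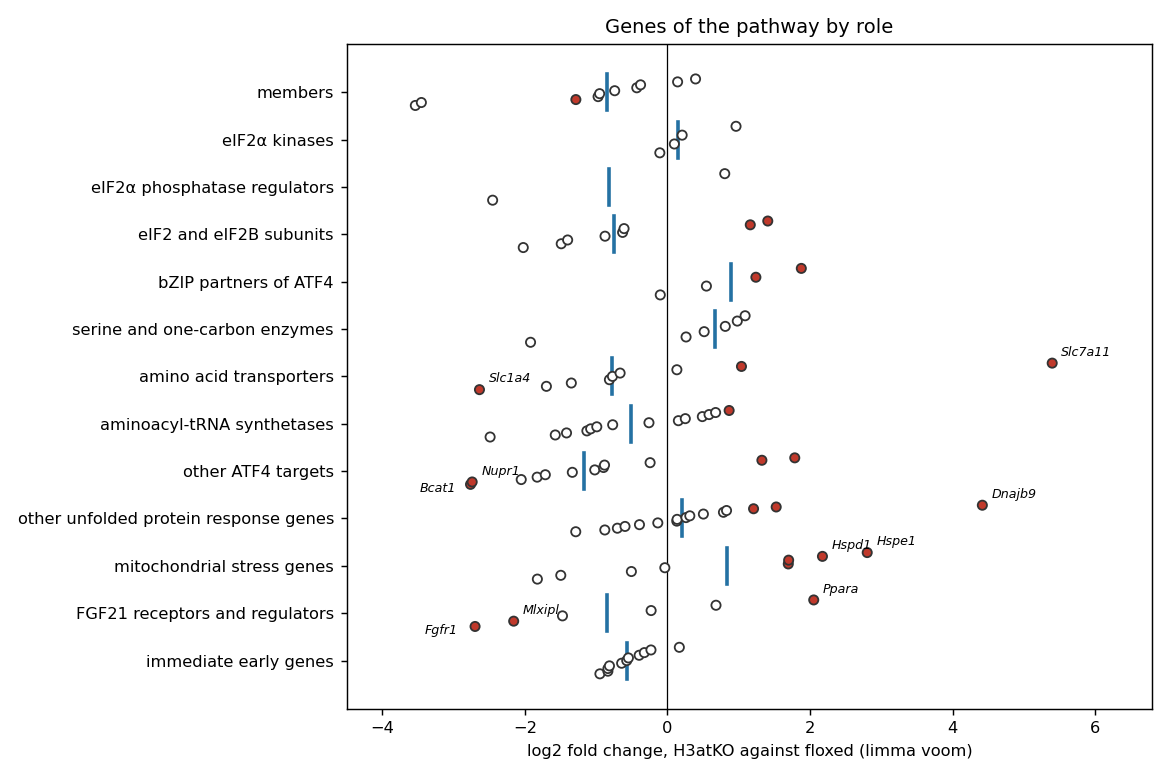
Log2 fold change of H3atKO against floxed (limma voom, genotype only) for the members and the other genes of the pathway in 12 lists by role. Each point is a gene, red where the adjusted p is under 0.05, and the blue bar is the median of the list. The members have a median of -0.85 with 1 red point, and the mitochondrial stress genes a median of 0.83 with 4.

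Downstream, amino acid uptake genes moved in opposite directions. *Slc7a11*, the cystine transporter subunit that supplies glutathione synthesis, was counted 38, 3 and 17 times in the floxed pools and 698, 73 and 333 times in the H3atKO pools. All H3atKO samples were higher, and the log2 fold change was 5.39 (SE 1.29, adjusted p = 0.0371; 4.38, adjusted p = 0.0784 with the GC trend subtracted). *Slc38a2*, a carrier of small neutral amino acids, rose by 1.04 (adjusted p = 0.0378; 0.47 with the GC trend subtracted, adjusted p = 0.152). *Slc1a4*, a carrier of alanine, serine and cysteine, fell from 7.95, 9.04 and 3.35 cpm in floxed to 0.577, 2.09 and 0.822 cpm in H3atKO (-2.64, adjusted p = 0.0453; -1.80, adjusted p = 0.0888 with the GC trend subtracted). These were 2 higher and 1 lower of 9 transporters, against 9.42% and 7.07% of all genes. With the block 2 were called higher and 4 lower, against 24.8% and 28.7%. With the GC trend subtracted 0 were called in either direction (at an unadjusted p under 0.05, 2 higher and 1 lower).

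Of the 14 genes listed for tRNA charging, 1 was called by limma voom. *Xpot*, which exports tRNA from the nucleus, rose by 0.86 (adjusted p = 0.0386; 0.52, adjusted p = 0.0731 with the GC trend subtracted), and the median of the list was -0.51. With the block 2 were called higher and 7 lower, against 24.8% and 28.7% of all genes. With the GC trend subtracted 0 were called in either direction, with or without the block (at an unadjusted p under 0.05, 4 higher and 1 lower without it).

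Among 12 other ATF4 targets tested, 2 rose and 2 fell by limma voom, against 9.42% and 7.07% of all genes. The block and DESeq2 each gave 2 higher and 6 lower, and the GC correction 1 and 2. Over all genes the shares were 24.8% and 28.7% with the block and 19.6% and 23.2% by DESeq2. *Nupr1*, a stress-induced chromatin regulator, had 91.8, 61.9 and 39.7 cpm in floxed and 15.6, 13.9 and 2.97 cpm in H3atKO replicates 1 to 3, and fell by 2.74 on the log2 scale (adjusted p = 0.0345; -2.58, adjusted p = 0.0436 with the GC trend subtracted). *Bcat1*, a branched-chain amino acid transaminase, fell by 2.76 (adjusted p = 0.0362; -2.99, adjusted p = 0.0287 with the GC trend subtracted). *Vldlr*, a lipoprotein receptor, rose by 1.78 (adjusted p = 0.0296; 1.10, adjusted p = 0.0506 with the GC trend subtracted). *Gpt2*, a mitochondrial alanine transaminase, rose by 1.32 (adjusted p = 0.0244; 1.79, adjusted p = 0.019 with the GC trend subtracted) and was named after its values were seen. *Gdf15*, a hormone often measured beside FGF21, had at most 19 counts in a sample and was not tested.

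Of 16 other genes of the unfolded protein response, 3 rose and 0 fell by limma voom, against 9.42% and 7.07% of all genes. Their median log2 fold change was 0.20. *Dnajb9*, an endoplasmic reticulum co-chaperone and target of XBP1, had 43.3, 38.6 and 98.6 cpm in floxed and 1192, 1053 and 1272 cpm in H3atKO replicates 1 to 3. It rose by 4.41 on the log2 scale (SE 0.38, adjusted p = 0.00793), and by 3.38 (adjusted p = 0.0075) with the GC trend subtracted. *Hspa5*, the gene of the chaperone BiP, rose by 1.52 (adjusted p = 0.0269), and *Hsp90b1* by 1.21 (adjusted p = 0.0381), but neither was called with the GC trend subtracted (adjusted p = 0.0606 and 0.459). With the block 6 of the 16 were called higher and 3 lower, against 24.8% and 28.7% of all genes. With the GC trend subtracted 2 were called higher and 1 lower, the last being *Pdia4*, a disulfide isomerase named after its values were seen (-0.87, adjusted p = 0.0437).

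The mitochondrial chaperonin genes *Hspd1* and *Hspe1*, which share a promoter region and encode the partners that fold proteins in the matrix, rose together. *Hspe1* had 26.2, 19.9 and 38.6 cpm in floxed and 187, 183 and 198 cpm in H3atKO (log2 fold change 2.80, adjusted p = 0.00793). *Hspd1* had 150, 153 and 183 cpm in floxed and 776, 778 and 640 cpm in H3atKO (2.17, adjusted p = 0.00793). Both were called with the GC trend subtracted (2.33 and 1.88, adjusted p = 0.00897 each). *Yme1l1*, a protease of the inner membrane, rose by 1.70 (adjusted p = 0.0253; 0.53, adjusted p = 0.0852 with the GC trend subtracted). With *Hspa9*, the matrix HSP70, named after its values were seen (1.69, adjusted p = 0.0153; 1.27, adjusted p = 0.0312 with the GC trend subtracted), 4 of the 8 mitochondrial stress genes rose and 0 fell by limma voom. Over all genes limma voom called 9.42% higher and 7.07% lower. The block and DESeq2 each called 4 of the list higher and 2 lower. Over all genes the shares were 24.8% and 28.7% with the block and 19.6% and 23.2% by DESeq2. With the block the 2 called lower were the matrix proteases *Lonp1* (-1.58, adjusted p = 0.0034) and *Clpp* (-1.89, adjusted p = 0.00398), named after their values were seen. They were at 0.14 and 0.11 with the GC trend subtracted and no block.

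The 11 immediate early genes, listed because handling of tissue can raise them together with *Atf3*, had a median log2 fold change of -0.57, and 10 of them lay below 0. None was called by limma voom or edgeR, and 0 passed at an unadjusted p under 0.05 by either. With the block 2 were called lower and 0 higher, against 28.7% and 24.8% of all genes. With the block plus GC correction 3 were called higher and 1 lower, against 12.9% and 9.84%. With the GC trend subtracted their median was 0.69, and 8 lay above 0.

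Over the 100 other pathway genes tested, limma voom called 17 higher and 5 lower, against 9.42% and 7.07% of all genes. The edgeR test called 20 and 10, against 12.8% and 18.4%. All H3atKO samples lay above all floxed samples for 28 of the 100 and below for 25. Over all genes tested these shares were 23.1% and 28.6%. The median was -0.29, and 0.25 with the GC trend subtracted. There 10 were called higher and 4 lower, against 5.46% and 3.2% of all genes. With the block 24 were called higher and 34 lower, against 24.8% and 28.7%. With both the block and the GC correction these counts were 17 and 9, against 12.9% and 9.84%. Leaving out a sample took the counts of higher and lower to 3 and 1 without floxed replicate 1, 0 and 0 without floxed replicate 2, and 22 and 25 without floxed replicate 3. They were 3 and 1, 5 and 1, and 5 and 0 without H3atKO replicates 1, 2 and 3. Of the 22 genes, *Dnajb9*, *Hspd1* and *Hspe1* were called in 5 of the 6 fits that left out a sample, all but that without floxed replicate 2 (adjusted p = 0.0508, 0.0519 and 0.0516). *Fgfr1* was called in 4, *Hspa9* in 3, *Slc7a11* and *Ppara* in 2, and the other 15 in the fit without floxed replicate 3 alone. At an unadjusted p under 0.05 limma voom without floxed replicate 2 gave 19 and 10.

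Compared per length, the members spanned a wide range of levels. In floxed samples the mean counts per kilobase of exon and 1000000 scaled counts were 59.4 for *Atf4*, 37.9 for *Asns*, 20.6 for *Atf5* and 14.3 for *Psat1*. *Phgdh* (8.10), *Chac1* (7.15), *Trib3* (6.22), *Ddit3* (5.71), *Atf3* (2.33) and *Fgf21* (1.84) followed. Only *Atf4* and *Asns*, at the top, did not overlap over the 3 samples, and all other neighbours in this order did. In H3atKO samples *Asns* (52.1) and *Atf4* (50.4) were level, *Atf5* followed at 12.0 without overlap, and *Phgdh* moved from the fifth to the ninth place at 0.710. *Fgf21*, last in both groups, was at 0.0467 in H3atKO and did not overlap with *Phgdh* there.

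Within a group most members had the same highest and the same lowest sample. In floxed, replicate 1 was the highest sample for 8 of the 10 members, and in H3atKO for 7. Replicate 3 was the lowest for 8 in each group. The same counts were not made over all genes. The highest floxed sample exceeded the lowest by 1.24 times for the steadiest member and at most 6.79 times for the others, *Fgf21* with its 2 counts in floxed replicate 3 left out. The same ratio in H3atKO ran from 1.67 to 5.93 among the members above 0 in every sample. Pearson's r of log2 cpm over the 6 samples, given as a description of samples that share their GC trend, ranged over the 45 pairs of members from -0.415 (*Phgdh* and *Atf3*) to 0.990, with a median of 0.576. Among 11634 genes, the 3 whose log2 cpm followed *Atf4* most closely were *Stip1* (r = 0.996), *Vps26c* (0.994) and *Usp39* (0.993). For *Fgf21* they were *Krba1* (0.997), *Smpd4* (0.996) and *Gart* (0.996). *Fgf21* had only 2 counts in floxed replicate 3 and 2, 1 and 0 in H3atKO replicates 1 to 3. Its log2 cpm in these samples depends on the prior count, so this likeness says little about the gene.

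The tissue label was checked against marker genes. The 8 adipocyte markers summed to 15057 to 31723 cpm in floxed and 16384 to 30105 cpm in H3atKO, and *Adipoq*, whose promoter drives the Cre, had at least 1266 cpm in every sample. This sum was carried by *Fabp4*, at 0.05 on the log2 scale, whereas 7 of the 8 markers had a log2 fold change below 0 and 1 was called lower, *Adig* (-2.28, adjusted p = 0.0437), named after its values were seen. In whole tissue, fewer cells of a type and less RNA per cell cannot be told apart. Endothelial markers summed to 455 to 853 cpm in floxed and 333 to 453 cpm in H3atKO, with 2 of 4 called lower, as were 1 of 6 macrophage markers and 1 of 5 stromal progenitor markers. The stromal sum was 7849 cpm in floxed replicate 3, the lowest floxed sample for 8 of the 10 members, and 1256 to 2009 cpm in the other samples. B cell markers summed to 90.6, 3.08 and 3.14 cpm in floxed and 229, 2.96 and 345 cpm in H3atKO replicates 1 to 3, and T cell markers to 2.92 to 26.4 and 6.37 to 80.2 cpm. Skeletal muscle markers ranged from 544 to 2370 cpm in floxed and from 2.402 to 3165 cpm in H3atKO, and each of the 6 epithelial markers had at most 100 counts. The part of these cells in the members' values was not tested.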

How the data were processed

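RNA from IngWAT was sequenced by the authors as poly(A)-selected stranded libraries. Reads were trimmed with cutadapt 1.3, aligned to GRCm38 with STAR 2.4.2a and counted per Ensembl gene with HTSeq 0.6.1. The deposited files hold these raw counts, 1 file per sample. The strand setting of the counting is not given in the sources used here. The 5 tally lines per file were left out of library sizes. Alignments of reads that fit several places, which go to no gene, were 28.3% to 35.2% of all lines summed in the floxed pools and 43.8% to 45.5% in the H3atKO pools.

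Symbols, positions and GC content came from GENCODE M21, to which 46005 of 46517 identifiers matched. Filter, scaling and test follow the study. A gene was kept where any sample reached 1 cpm, libraries were scaled by TMM (factors 1.30 to 1.37 in the floxed and 0.66 to 0.92 in the H3atKO pools), and genotypes were compared with limma 3.58.1 (voom) in R 4.3.3. Calls used a Benjamini-Hochberg adjusted p under 0.05 over all genes tested. edgeR 4.0.16, DESeq2 1.42.0, other scalings and filters, quality weights, the replicate block, a loess GC correction (span 0.3), removal of mitochondrial genes and leaving out each sample were the alternatives. The fits were tested on simulated counts.

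After each group's mean was subtracted, same-numbered samples correlated across genes with r of 0.510, 0.389 and 0.264. The numbers, which come from the sample labels, were therefore taken to pair the samples. Correlations between samples with different numbers were not computed, so whether the relation is particular to shared numbers was not tested. Spearman's rho with GC content fell from replicate 1 to 3 in both groups. It was 0.800, 0.623 and 0.0969 in floxed and -0.433, -0.504 and -0.711 in H3atKO. The part of this trend in the correlations between same-numbered samples was not tested. What the replicate numbers stand for is not given in the sources used here. The sources do not say that pools hold different mice, so p-values measure only the spread between these pools, which may be technical.

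At these depths 3 counts are 0.0852 to 0.126 cpm, for counting error only. The members and gene lists were chosen with earlier results of these data known. Genes named are the members, *Hdac3*, up to 3 genes per list with the largest change among those called, the 3 genes most like *Atf4* and *Fgf21* (mean of at least 1 log2 cpm), and those said to be named after their values were seen. Protein sequences were not used here.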

Additional observations from a re-analysis of the deposited data

How the results depend on the processing

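Over 17 alternatives, the 31 named genes that were tested against genotype gave 524 log2 fold changes, of which 365 kept their direction and side of the threshold, 127 lost the call, 17 gained one and 15 changed sign. With the GC correction *Atf4* was at 1.05, *Atf5* at 1.68, *Trib3* at 1.07 and *Chac1* at 0.89, and with the replicate block plus that correction they were at 1.03, 1.77, 1.15 and 0.92. With library sizes alone *Asns* was at -0.46 and *Atf3* at -0.75, and *Atf3* was at -0.021 with at least 10 counts in every sample. Leaving out a sample gave -0.71 to 0.15 for *Atf4* and -0.53 to 0.73 for *Atf3*.

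Members called higher numbered 0, but 1 with the GC correction and 2 with the replicate block plus GC correction. Members called lower numbered 1, but 3 with edgeR, DESeq2, library sizes alone, and the replicate block with the GC correction, 2 with at least 10 counts in every sample or with quality weights. The replicate block alone gave 6. They numbered 0 to 3 with a sample left out, with 3 only without floxed replicate 3. Other pathway genes called higher numbered 17, but 4 with library sizes alone, 28 with quality weights, 10 with the GC correction and 0 to 22 with a sample left out. Those called lower numbered 5, but 10 with edgeR, 22 with DESeq2, 44 with library sizes alone, 9 with at least 10 counts in every sample, 30 with quality weights, 34 with the replicate block alone, 9 with block plus GC correction, and 0 to 25 with a sample left out. The replicate block took away no call of the named genes. Causes were not tested, except that library sizes alone moved the median of all genes by construction to -0.94 and that fits with a sample left out have fewer samples. At 3 counts or fewer, which held for *Fgf21* in 4 samples, depth allows no comparison between samples.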
